A study of Mus musculus with 11 samples.

Results

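Genomic imprinting leaves a gene active mainly on the copy inherited from 1 parent, and the 7 genes described here, Gnas, Snrpn, Ndn, Peg3, Meg3, Dlk1 and Nnat, are imprinted genes with prominent expression in the nervous system. They were followed in single cells of the mouse stellate ganglion, a paravertebral ganglion of the lower neck whose sympathetic neurons reach the heart, the forelimb and brown fat. The genes were chosen by name, and Gnas also because its level differed between 2 of the authors' cell clusters, clusters 1 and 2, by a size that varied with the set of mice, so that contrast is given as a description. Of the 7 genes, 6 were among the 19444 genes of the deposited table. Dlk1, a transmembrane protein related to the Notch ligands, had no row there and was not analysed here.

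The cells came from male C57BL/6J mice 6 to 8 weeks old. All 6 mice carried the same 2 retrograde tracers, CTB-488 injected in the forelimb and CTB-555 injected in the interscapular brown adipose tissue (iBAT), given 3 days earlier. Each of the 3 sets pooled the ganglia of 2 mice. Sets 1 and 2 filled 4 plates each with sorted cells, and Set 3 filled 3. There is no untreated group, and tracer label could not be tied to single cells here, so the comparisons are between clusters and between sets. C57BL/6J is an inbred strain, so the counts hold no information on which parental copy a transcript came from.

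Gnas encodes Gsα, the G protein subunit that couples receptors to adenylyl cyclase. Its locus also makes the secretory protein NESP55 and the large form XLαs, and these transcripts share their 3' exons, so 1 row stands for all of them. Nnat (neuronatin) is a small proteolipid of the endoplasmic reticulum membrane, Meg3 is a nuclear long non-coding RNA made from the maternal copy, and Dlk1 is its paternally expressed neighbour. Snrpn encodes SmN, the neuronal version of the spliceosomal protein SmB, and Ndn encodes necdin, a MAGE family protein of postmitotic neurons. Both lie in the Prader-Willi region and are expressed from the paternal copy, as is Peg3, a zinc finger protein.

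The table held 878 cells with 30518080 counts and a median of 32923.5 counts per cell, and plates held between 2050165 and 3373157 counts. Levels are counts per 10000 counts of a cell, averaged over the cells of a set and then over the sets, with the SD over 3 sets. The authors' cluster 1 (388 cells) and cluster 2 (335 cells) carried the markers of noradrenergic neurons, with 8 such genes (Th and Dbh among them) summing to between 94.3 and 110 counts per 10000 by set in cluster 1 and to between 116 and 134 in cluster 2. Cluster 4 (54 cells) carried cholinergic markers (Chat, Slc18a3, Slc5a7 and Vip), which summed to between 58.2 and 64.6 in cluster 4 and stayed at or below 0.391 in cluster 1 and 0.354 in cluster 2. Most of that sum was Vip, at 54.1 ± 4.14, while Chat was at 0.507 ± 0.0770. Cluster 4 also held noradrenergic markers, whose 8 genes summed to between 35.1 and 49.8 by set, with Th at 24.6 ± 8.99. Cluster 3 mixed 2 populations and was split at 31623 counts into 54 low-count cells and 47 high-count cells. In the low-count cells 7 pan-neuronal markers summed to 37.1 and 8 endothelial markers to 22.5, against 102 and 1.15 in cluster 1 and 103 and 1.15 in cluster 2. In the low-count cells 8 glial and Schwann cell markers summed to 44.1, 4 fibroblast markers to 25.5 and 5 mural markers to 18.5. By set these sums ranged from 15.6 to 88.7, 0.327 to 44.1 and 2.40 to 28.6. They were 13.4, 0.0708 and 0.970 in cluster 1 and 17.6, 0.0524 and 0.263 in cluster 2.

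Every one of the 6 genes was present in the neurons of all 3 sets. Cluster 4 carried 7.96 ± 0.448 counts per 10000 of Gnas, against 1.03 ± 0.0471 in cluster 1 and 3.54 ± 0.907 in cluster 2 (SD, n = 3 sets each). Cluster 4 also carried 4.44 ± 2.16 of Nnat, against 0.729 ± 0.188 in cluster 1 and 1.40 ± 0.434 in cluster 2. Meg3 went the other way, with 11.6 ± 0.950 in cluster 4, against 14.2 ± 2.03 in cluster 1 and 14.3 ± 2.02 in cluster 2. A low Meg3 level was not particular to cluster 4, since the high-count cells of cluster 3 held 11.2 ± 2.07. Snrpn, Ndn and Peg3 were at similar levels in the 3 neuron clusters, but differed between the sets of mice.

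**Figure D1:**
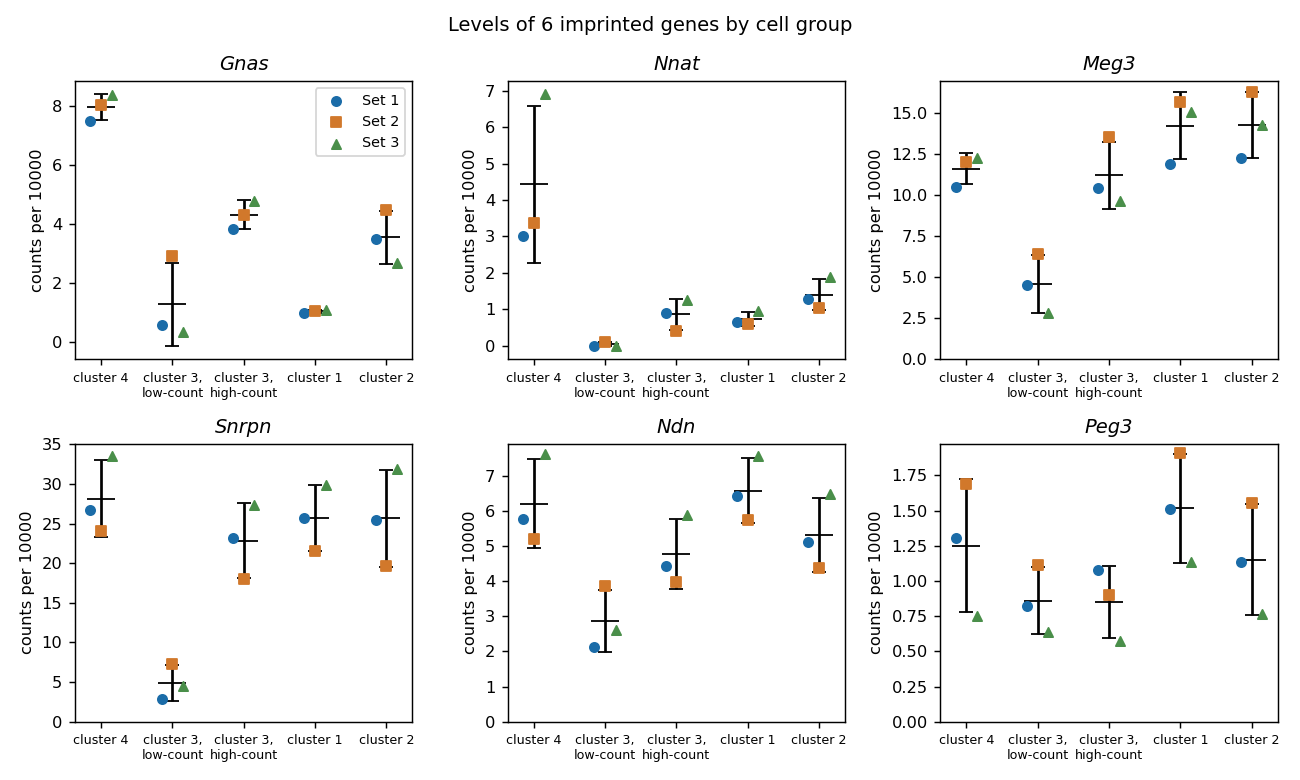
Level of each gene (counts per 10000, linear axis) in cluster 4, in the low-count and high-count cells of cluster 3, and in clusters 1 and 2. Symbols are the 3 sets, bars the mean and SD over sets; Gnas and Nnat were highest in cluster 4 in every set, and Snrpn was lowest in the low-count cells of cluster 3.

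The first comparison set the cholinergic cluster 4 against the mean of clusters 1 and 2, a contrast that the choice of genes did not use. It was tested with limma on set means of log2(1 + counts per 10000), with the set as a block, and p-values were adjusted over all genes tested by the Benjamini-Hochberg method. The clusters had been made from the same table, so a p-value here describes how far a difference repeats over the sets. Of the 6 genes, 4 passed an adjusted p of 0.05, with Gnas, Nnat and Snrpn higher and Meg3 lower in cluster 4. Across all 10564 genes tested, 24.7% passed, 12.4% higher and 12.3% lower. The 4 of 6 is read against that background.

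Gnas lies on chromosome 2 at chr2:174284320-174346744 (plus strand, GRCm38). Its level in Sets 1, 2 and 3 was 7.48, 8.02 and 8.37 counts per 10000 in cluster 4, against 0.974, 1.05 and 1.06 in cluster 1 and 3.48, 4.47 and 2.66 in cluster 2. The lowest set of cluster 4 was above the highest set of both other clusters. The share of all genes with such a separation was not counted, so nothing further is read from it. The level in cluster 4 was 7.74 times that in cluster 1 and 2.25 times that in cluster 2. The difference of mean log2(1 + counts per 10000), cluster 4 minus the mean of clusters 1 and 2, was 1.58 (SE 0.0831, limma adjusted p = 2.29e-08). It was 1.56, 1.44 and 1.74 in Sets 1, 2 and 3. After every cell was thinned to 15000 counts, 53 of 53 cells of cluster 4 still had a Gnas count, against 74.1% of cells in cluster 1 (95% Clopper-Pearson interval 69.3% to 78.5%) and 98.1% in cluster 2 (96.0% to 99.3%). Before thinning the shares were 100%, 87.6% and 98.5%, and all such intervals cover counting error only.

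Nnat lies at chr2:157560078-157562522 (plus strand), inside the gene Blcap on the opposite strand. Its level in Sets 1, 2 and 3 was 3.02, 3.37 and 6.92 counts per 10000 in cluster 4, against 0.651, 0.594 and 0.944 in cluster 1 and 1.28, 1.04 and 1.88 in cluster 2. Every set of cluster 4 was above every set of both other clusters, a separation whose share over all genes was not counted. Set 3 was high within cluster 4. The level was 6.09 times that in cluster 1 and 3.16 times that in cluster 2, and the log2 difference was 1.21 (SE 0.122, limma adjusted p = 0.000175). Blcap, a small membrane protein, did not pass, with a log2 difference of 0.04 (adjusted p = 0.475). The sources used here do not state whether the authors' counting used the strand, so reads of the 2 overlapping genes may not be fully told apart.

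Glial marker counts moved with cluster 4. The 8 glial and Schwann cell markers, all of them detected, summed to 21.1, 25.4 and 43.0 counts per 10000 in Sets 1, 2 and 3 of cluster 4, against 11.8, 13.8 and 14.4 in cluster 1 and 13.8, 23.4 and 15.5 in cluster 2. Apoe (14.5 ± 7.97) and Pmp22 (10.7 ± 1.51) made up most of the sum in cluster 4. Each marker but Mbp had its highest mean of the 3 clusters in cluster 4. Pmp22 also had a higher mean in every neuron group than in the low-count cells of cluster 3 (5.26 ± 2.46), so it does not mark glia alone here. Without the 78 cells of clusters 1, 2 and 4 that were richest in glial counts, the glial sums of cluster 4 were 9.69, 13.6 and 15.7, while Nnat was at 2.53, 3.13 and 7.10 and Gnas at 7.28, 7.36 and 8.16. The glial sums were then 7.87, 8.64 and 8.73 in cluster 1 and 11.0, 10.8 and 11.3 in cluster 2. Cluster 4 thus stayed above cluster 1 in every set, and above cluster 2 in Sets 2 and 3. The log2 difference without those cells was 1.08 for Nnat (adjusted p = 0.000489) and 1.52 for Gnas (adjusted p = 5.89e-07). Across the 54 cells of cluster 4, with sets not separated, the Spearman correlation with the glial sum was 0.427 for Nnat and 0.245 for Gnas. Set 3 of cluster 4 was highest in the glial sum, Nnat and Gnas, so these correlations mix differences between sets with those between cells. They are a description of cells that share libraries.

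Meg3 lies at chr12:109541001-109571726 (plus strand). Its level in Sets 1, 2 and 3 was 10.5, 12.0 and 12.3 counts per 10000 in cluster 4, against 11.9, 15.7 and 15.1 in cluster 1 and 12.2, 16.3 and 14.3 in cluster 2. Cluster 4 was below both other clusters within every set, but the ranges over sets overlapped. The log2 difference was -0.24 (SE 0.0421, limma adjusted p = 0.000727), and the call rested on taking the difference within sets, since the adjusted p was 0.279 without the set block.

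Snrpn lies at chr7:59982495-60140219 (minus strand). Its level was 26.7, 24.1 and 33.5 counts per 10000 in cluster 4, against 25.8, 21.5 and 29.9 in cluster 1 and 25.5, 19.7 and 31.8 in cluster 2 (Sets 1, 2 and 3). Snurf, made from the same transcript, has no row of its own. The groups overlapped, and the difference of 0.14 (SE 0.0427, limma adjusted p = 0.0256) was lost under 8 of 12 alternative settings, where the adjusted p lay between 0.0530 and 0.713. Ndn (chr7:62346569-62350262, plus strand) averaged 6.20 ± 1.27 in cluster 4, against 6.57 ± 0.929 in cluster 1 and 5.32 ± 1.06 in cluster 2, and did not pass (log2 difference 0.04, SE 0.0432, adjusted p = 0.573). Peg3 (chr7:6703892-6730431, minus strand) averaged 1.25 ± 0.472 in cluster 4, against 1.52 ± 0.387 in cluster 1 and 1.15 ± 0.394 in cluster 2, and did not pass either (-0.05, SE 0.0479, adjusted p = 0.524).

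The promoters of the 3 genes with the firmest calls in cluster 4 are shown for their base composition and for short motifs that a search found in them, on both strands. The sequences are those of RefSeq on GRCm38.p6, from 250 bases before to 50 after a start site, 5' to 3' on the strand of the gene. Gnas is shown at the most downstream of its listed starts, that of Gsα (chr2:174329756-174330055, plus strand). Nnat is at chr2:157559828-157560127 (plus strand) and Meg3 at chr12:109540746-109541045 (plus strand). Capitals mark the core of the NRF1 motif (GCATGCGC or its reverse complement GCGCATGC, which overlap in Nnat) and the cAMP response element (TGACGTCA).
Gnas: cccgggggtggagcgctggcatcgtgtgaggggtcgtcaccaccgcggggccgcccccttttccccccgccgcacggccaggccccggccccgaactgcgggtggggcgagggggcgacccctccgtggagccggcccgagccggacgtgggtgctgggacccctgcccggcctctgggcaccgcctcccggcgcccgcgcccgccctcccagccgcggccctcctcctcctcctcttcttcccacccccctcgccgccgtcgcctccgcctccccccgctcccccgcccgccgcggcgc
Nnat: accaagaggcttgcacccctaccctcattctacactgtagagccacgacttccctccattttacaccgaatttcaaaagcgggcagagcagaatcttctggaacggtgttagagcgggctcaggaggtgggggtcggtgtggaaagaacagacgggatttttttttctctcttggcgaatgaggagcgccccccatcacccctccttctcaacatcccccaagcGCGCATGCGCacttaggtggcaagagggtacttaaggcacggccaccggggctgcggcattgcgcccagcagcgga
Meg3: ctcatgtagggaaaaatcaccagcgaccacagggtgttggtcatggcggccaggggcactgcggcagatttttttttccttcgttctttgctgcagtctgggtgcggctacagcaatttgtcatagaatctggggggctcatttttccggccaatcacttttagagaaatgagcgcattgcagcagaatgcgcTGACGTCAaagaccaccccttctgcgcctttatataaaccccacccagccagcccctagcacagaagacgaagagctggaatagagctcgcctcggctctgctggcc

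The Gnas window held 40 CpG dinucleotides, more than 96.1% of the 32851 promoters in the table, whose median was 7. The Nnat window held 17, with both matches of the NRF1 core, and 2.71% of all promoters held a match. The Meg3 window held 13, with 1 match of the cAMP response element, and Peg3 also had 1 match, against 1.79% of all promoters. The motifs were chosen after the sequences were seen, and a match describes the letters only.

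Other imprinted genes gave no common direction in cluster 4. Of 68 further imprinted genes listed, many of them imprinted only in the placenta or a few tissues, 46 had a row and 36 passed the filter on low values. Of these 36, 9 were higher and 9 were lower in cluster 4, and the median log2 difference was 0.02, against -0.00 over all genes tested. The share called, 50%, was above the 24.7% of all genes, but 11 of the 36 passed when means were weighted by their number of cells, and 10 passed after thinning. In these settings 1911 of 10564 and 1815 of 10518 genes passed in all. Over all settings tried, 7 to 18 of the 36 passed.

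Cd81, a tetraspanin, was higher with 4.39 ± 1.46 counts per 10000 in cluster 4, against 2.83 ± 1.03 in cluster 1 and 2.15 ± 1.08 in cluster 2 (log2 difference 0.66, limma adjusted p = 5.38e-08). It was at 17.1 ± 10.5 in the low-count cells of cluster 3, which mix cell types, and at 1.01 ± 0.551 in the high-count cells. Nap1l5, a nucleosome assembly protein, was also higher, with 6.82 ± 0.303 in cluster 4, against 5.09 ± 0.442 in cluster 1 and 4.96 ± 0.437 in cluster 2 (0.40, adjusted p = 1.41e-05). Ddc, the decarboxylase that makes dopamine in noradrenergic cells, was lower, with 3.36 ± 0.520 in cluster 4, against 11.4 ± 0.457 in cluster 1 and 12.9 ± 1.52 in cluster 2 (-1.70, adjusted p = 1.77e-11). H13, a signal peptide peptidase, had a difference of -0.18 (adjusted p = 0.0112), while Mcts2, the imprinted gene inside it, had one of 0.02 (adjusted p = 0.761).

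**Figure D2:**
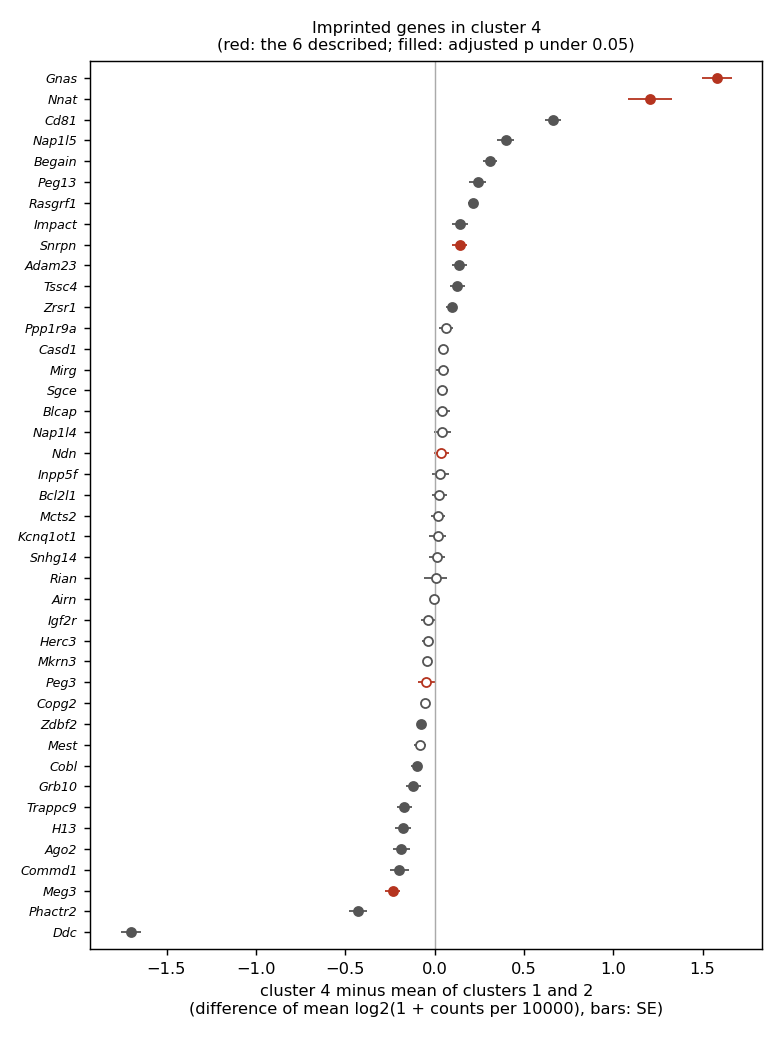
Difference of mean log2(1 + counts per 10000), cluster 4 minus the mean of clusters 1 and 2, with its SE, for the 6 genes (red) and 36 other imprinted genes; filled points passed an adjusted p of 0.05. Gnas at 1.58 and Nnat at 1.21 lie at the top and Ddc at -1.70 at the bottom, with most other genes near 0.

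Genes next to the 6 in their imprinted domains did not follow them as a group. In the Meg3 domain, Begain, a postsynaptic scaffold-associated protein, was higher in cluster 4 at 0.513 ± 0.0935 counts per 10000, against 0.256 ± 0.0473 in cluster 1 and 0.176 ± 0.0236 in cluster 2 (log2 difference 0.31, limma adjusted p = 1.51e-05). The non-coding RNAs Rian (0.01, adjusted p = 0.964) and Mirg (0.04, adjusted p = 0.403) did not pass. Rtl1, whose mean was 0.0139 counts per 10000, was under the filter. Beside Snrpn and Ndn, neither Snhg14, the long non-coding RNA downstream of Snrpn (0.01, adjusted p = 0.880), nor Mkrn3, a ubiquitin ligase (-0.04, adjusted p = 0.123), passed. Zim1, beside Peg3, had a mean of 0.00658 and was not tested.

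Partner genes were counted in the same way. Of 20 tested partners of Gsα and members of the cAMP pathway, 3 were higher and 8 lower in cluster 4, against 12.4% and 12.3% of all genes, with a median log2 difference of -0.08, and 5 to 14 passed over all settings tried. Gnal, which encodes the closely related subunit Gαolf, was higher, with 1.48 ± 0.181 counts per 10000 in cluster 4, against 1.00 ± 0.188 in cluster 1 and 0.845 ± 0.239 in cluster 2 (0.36, limma adjusted p = 0.000119); it was named after its value was seen. Prkar1b, a regulatory subunit of protein kinase A, was lower (-0.20, adjusted p = 0.00447), whereas its relative Prkar1a (-0.10, adjusted p = 0.183) and the G protein subunits Gnb1 (-0.12, adjusted p = 0.0682) and Gng3 (0.07, adjusted p = 0.254) did not pass.

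Of 12 Sm ring and U snRNP proteins, 0 passed the limma test and 3 had an unadjusted p under 0.05, with a median log2 difference of 0.01, and 0 passed with voom weights. The 4 most abundant, Snrpd2, Snrpe, Snrpb and Snrpd1, had differences of 0.02, 0.06, -0.05 and 0.06. Of 5 MAGE family genes 2 were lower, against 12.3% of all genes, among them Maged1 (-0.20, adjusted p = 0.0122), while Magee1 (0.09), Maged2 (-0.06) and Nsmce3 (-0.08) did not pass. The calcium pump gene Atp2a2 did not pass either (0.09, adjusted p = 0.340). Of 4 tested Notch pathway genes, 1 was higher, against 12.4% of all genes. This was Hes1, at 1.39 ± 0.479 in cluster 4, against 0.194 ± 0.0516 in cluster 1 and 0.308 ± 0.0634 in cluster 2 (0.81, limma adjusted p = 2.18e-06). In the low-count cells of cluster 3, which mix cell types, Hes1 was at 43.4 ± 22.1. Hey1 (-0.01, limma adjusted p = 0.832), Dll3 (0.04, adjusted p = 0.320) and Hey2 (-0.01, adjusted p = 0.812) did not pass.

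Between the noradrenergic clusters, Gnas was lower in cluster 1 than in cluster 2 in every set and every plate. Because the choice of genes used this contrast, it is given with no test. Over all genes, 50.7% had the same sign in all 3 sets and 8.86% passed the same limma fit, and nothing is read from these shares. On the log2 scale, cluster 1 minus cluster 2 was -1.21 in Set 1, -1.40 in Set 2 and -0.80 in Set 3 (mean -1.14 ± 0.311, SD, n = 3). Cluster 1 held 0.845, 0.882, 0.948 and 1.21 counts per 10000 on the 4 plates of Set 1, against 3.36, 3.37, 3.90 and 3.26 in cluster 2. On the plates of Set 2 cluster 1 held 1.11, 0.855, 1.00 and 1.19, against 4.01, 3.89, 5.21 and 4.64 in cluster 2. On the plates of Set 3 cluster 1 held 0.571, 1.41 and 1.20, against 1.67, 3.23 and 3.27 in cluster 2. The difference lay between -1.62 and -0.73 over the 11 plates, and plate 9 was low in both clusters. Cluster 1 varied little between sets, so the sets differed mostly in the cluster 2 level. The size also depends on the scale, and was -1.91 with a pseudocount of 0.1 in place of 1.

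The other genes differed less between these clusters. Nnat was lower in cluster 1, by set -0.38, -0.30 and -0.50 on the log2 scale, with all 11 plates below 0. On plate 8 of Set 2 the mean counts were level at 0.714 per 10000 in cluster 1 and 0.690 in cluster 2. On the log2 scale, Ndn was higher in cluster 1 on all 11 plates (0.27, 0.32 and 0.20 by set) and Peg3 on 10 of 11 (0.19, 0.21 and 0.28). For Peg3 on plate 8 the mean counts were 1.68 per 10000 in cluster 1 and 1.71 in cluster 2, while the log2 difference was 0.09. Snrpn was above 0 on 7 plates and below on 4, as was Meg3, with means of 0.03 and 0.00.

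**Figure D3:**
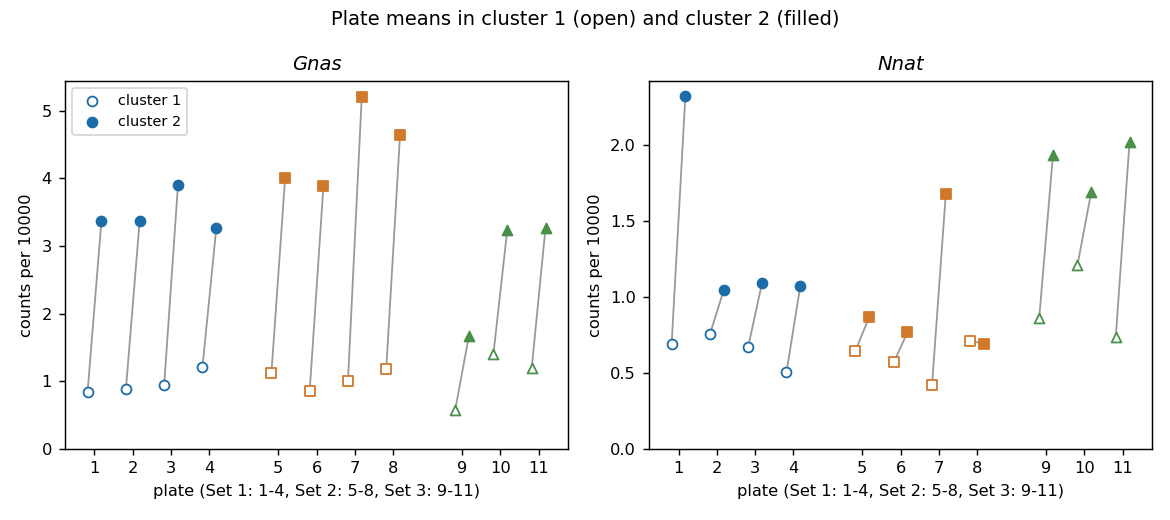
Plate means of Gnas and Nnat (counts per 10000, linear axis) in cluster 1 (open symbols, left) and cluster 2 (filled symbols, right), with a line joining the 2 values of a plate. Gnas was lower in cluster 1 on all 11 plates; Nnat was lower on all but plate 8, where cluster 1 had 0.714 and cluster 2 had 0.690.

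Depth differed between the clusters, with a median of 35488.5 counts per cell in cluster 4, 28396 in cluster 1 and 40121 in cluster 2. Within cluster 2, cells with more counts also gave a larger share of them to Gnas. When the cells of each set were ranked by total count and split into 3 groups of equal size, the group with the lowest totals had 2.59 ± 0.815 Gnas counts per 10000, the middle group 3.81 ± 0.996 and the highest group 4.24 ± 0.972 (SD, n = 3 sets). The order held in each set, with 2.83, 3.63 and 3.99 in Set 1, 3.25, 4.89 and 5.31 in Set 2 and 1.68, 2.92 and 3.41 in Set 3 from the lowest group to the highest. In cluster 1 the values were 0.932 ± 0.253, 1.03 ± 0.187 and 1.12 ± 0.0626, and the order held in Set 3 but not in Set 1 or Set 2.

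With plate means removed, the Spearman correlation of Gnas with total count was 0.504 over the 335 cells of cluster 2 and 0.136 over the 388 cells of cluster 1. Of 1884 genes with at least 1 count per 10000 in cluster 2, 99.7% had a lower value, and their median was 0.05. In cluster 1, 84.4% of 1866 genes had a lower value than Gnas. The other genes of the group ran the other way in cluster 2, at -0.204 for Snrpn, -0.104 for Ndn, -0.147 for Peg3, -0.192 for Meg3 and -0.0888 for Nnat. The total enters both quantities, so these are descriptions. The high-count cells of cluster 3, with a median of 68061 counts, carried 4.31 ± 0.480 Gnas counts per 10000, which overlapped cluster 2 in its range over sets.

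**Figure D4:**
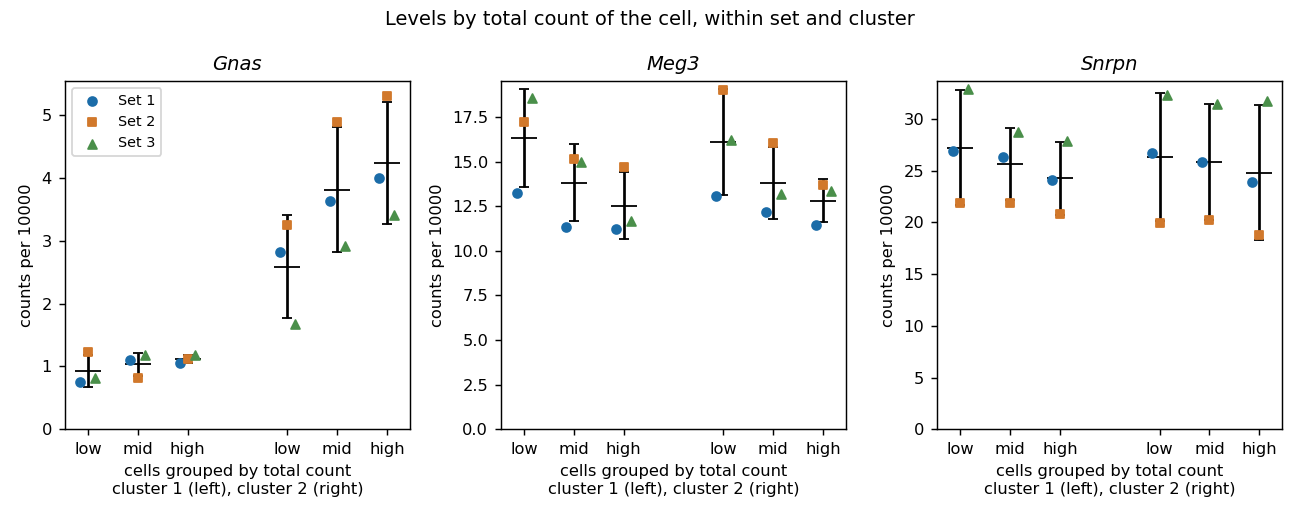
Level (counts per 10000, linear axis) of Gnas, Meg3 and Snrpn in 3 equal groups of cells ranked by total count within each set, for cluster 1 (left) and cluster 2 (right); symbols are sets, bars the mean and SD over sets. In cluster 2, Gnas was 2.59, 3.81 and 4.24 from the lowest group to the highest, and Meg3 was 16.1, 13.8 and 12.8.

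The last comparison set the 3 sets against each other within a cluster, on plate means. Plates of a set share the same pooled ganglia, so the moderated F test of limma measures the spread between plates, and the mice of a set and its processing cannot be told apart. Snrpn, Ndn, Peg3 and Meg3 differed between sets in both clusters. The choice of Gnas used how its cluster difference varied with set, so its values by set are a description with no test. In cluster 1, 4 of the other 5 genes passed, against 26.8% of 10367 genes tested. In cluster 2, 4 of the other 5 passed as well, against 31.5% of 10360, and 18.8% of 9932 genes passed in both clusters. Where plates of different sets are said not to overlap, the share of all genes with such a separation was not counted. The neuron groups of a set also share its ganglia and plates, so an order of sets seen in several groups is not a separate repeat. The share of all genes with such a common order was not counted either.

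Snrpn was highest in Set 3 and lowest in Set 2. In cluster 1 its plate means were 27.8, 28.4 and 33.6 counts per 10000 in Set 3, against 21.7, 21.5, 20.0 and 22.6 in Set 2. Those of Set 1 were between them, at 25.7, 25.4, 25.7 and 26.3, and no plate of 1 set overlapped another set. Set 3 minus Set 2 was 0.47 on the log2 scale (SE 0.0648, limma F test adjusted p = 1.08e-06). In cluster 2 the plates held 29.9, 31.2 and 34.9 in Set 3, against 19.3, 19.8, 18.9 and 20.9 in Set 2 (0.72, SE 0.0612, adjusted p = 7.07e-11). The order Set 3, Set 1, Set 2 was the same in cluster 4 and in the high-count cells of cluster 3, where Set 3 was 1.39 and 1.52 times Set 2.

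Ndn, in the same imprinted region as Snrpn, took the same order of sets in all 4 neuron groups. In cluster 1 its plate means were 7.27, 7.46 and 8.01 counts per 10000 in Set 3, against 4.97, 5.47, 5.98 and 6.53 in Set 2, without overlap (log2 difference 0.38, SE 0.0770, limma F test adjusted p = 0.000817). In cluster 2 they were 6.93, 6.58 and 5.77 in Set 3, against 3.96, 3.85, 4.70 and 5.00 in Set 2 (0.50, SE 0.0744, adjusted p = 1.21e-05). Snhg14, transcribed from the same region, had the opposite sign, with Set 3 minus Set 2 at -0.32 in cluster 1 (adjusted p = 5.79e-05) and -0.31 in cluster 2 (adjusted p = 0.000141).

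Their promoters are shown to set the neighbours side by side, in the same source and format as above. Snrpn is shown at the most downstream of its listed starts, chr7:60005150-60005449 (minus strand), and Ndn at chr7:62348027-62348326 (plus strand). The Snrpn window held 7 CpG dinucleotides and neither motif, and the Ndn window held 11 and 1 match of the NRF1 core, in capitals.
Snrpn: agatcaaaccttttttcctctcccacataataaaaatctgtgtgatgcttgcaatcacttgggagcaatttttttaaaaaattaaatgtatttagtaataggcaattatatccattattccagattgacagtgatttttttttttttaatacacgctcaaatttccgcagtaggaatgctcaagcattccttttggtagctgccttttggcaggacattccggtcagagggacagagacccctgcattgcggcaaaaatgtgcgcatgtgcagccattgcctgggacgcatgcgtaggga
Ndn: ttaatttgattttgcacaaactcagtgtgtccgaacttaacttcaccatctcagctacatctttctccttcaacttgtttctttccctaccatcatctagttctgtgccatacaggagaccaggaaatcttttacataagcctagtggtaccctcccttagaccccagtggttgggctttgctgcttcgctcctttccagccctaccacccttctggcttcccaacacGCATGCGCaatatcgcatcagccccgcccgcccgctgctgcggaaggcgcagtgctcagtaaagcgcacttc

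Peg3 ran the other way, lowest in Set 3 and highest in Set 2. In cluster 1 its plate means were 1.21, 1.19 and 0.993 counts per 10000 in Set 3, against 2.13, 2.08, 1.73 and 1.68 in Set 2 (log2 difference -0.45, SE 0.0799, limma F test adjusted p = 0.000106). In cluster 2 they were 0.662, 0.866 and 0.782 in Set 3, against 1.49, 1.44, 1.57 and 1.71 in Set 2 (-0.52, SE 0.0649, adjusted p = 4.43e-07). No plate of Set 3 reached a plate of Set 2 in either cluster. The same order held in cluster 4, at 0.750 in Set 3, 1.69 in Set 2 and 1.31 in Set 1, but in the high-count cells of cluster 3 Set 1 was the highest.

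Meg3 was lowest in Set 1 in clusters 1, 2 and 4, but in the high-count cells of cluster 3 it was lowest in Set 3. In cluster 1 its plate means were 18.1, 16.0, 14.7 and 13.8 counts per 10000 in Set 2, against 11.0, 12.5, 11.0 and 13.2 in Set 1 (log2 difference 0.33, SE 0.0697, limma F test adjusted p = 0.000669). In cluster 2 they were 18.9, 14.9, 17.2 and 13.7 in Set 2, against 11.3, 13.2, 12.4 and 11.5 in Set 1 (0.35, SE 0.0750, adjusted p = 0.00262). Rian, the next RNA of that domain, also passed in cluster 1, with Set 2 minus Set 1 at 0.34 (adjusted p = 0.000512), and in cluster 2, where the same difference was 0.09 and Set 3 minus Set 2 was -0.25 (adjusted p = 0.00424).

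For Gnas in cluster 2, Set 3 minus Set 2 was -0.58 on the log2 scale, given with no test. Without plate 9, whose Gnas level in cluster 2 was 1.67 counts per 10000 against 3.23 and 3.27 on the other plates of Set 3, the difference in cluster 2 was -0.35. The median depth of cluster 2 on plate 9, 35255.5 counts, was near the 36401 and 36076 of the other plates of the set. Nnat did not pass in cluster 1 (0.19 for Set 3 minus Set 2, limma F test adjusted p = 0.0580) or in cluster 2 (0.39, adjusted p = 0.0864). Plate 1 was high for Nnat in cluster 2, at 2.33 against 1.05, 1.09 and 1.07 on the other plates of Set 1, and the adjusted p was 0.000666 without it.

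Depth moved with the sets. The median count per cell in cluster 2 was 35748.5 in Set 3, 46238 in Set 2 and 39116 in Set 1, and in cluster 1 it was 27211, 30846 and 27240.5. Thinned to 15000 counts, Snrpn was at 29.5 counts per 10000 in Set 3, 21.5 in Set 2 and 25.5 in Set 1 in cluster 1, and at 31.0, 20.1 and 25.6 in cluster 2. The 4 genes passed in both clusters in that setting too.

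**Figure D5:**
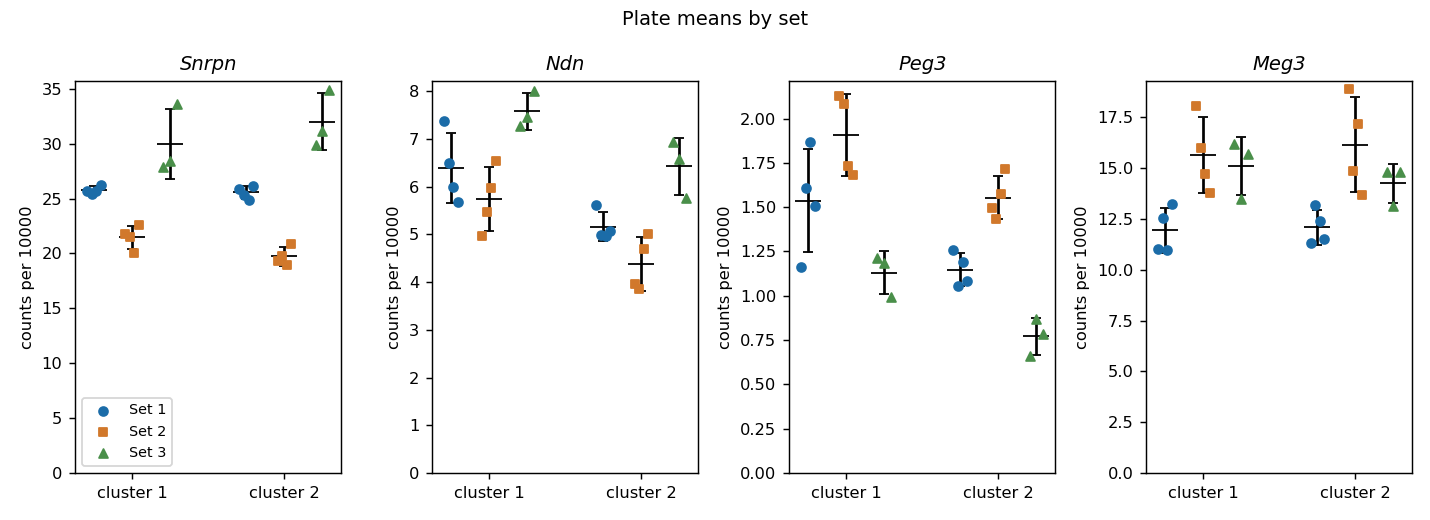
Plate means of Snrpn, Ndn, Peg3 and Meg3 (counts per 10000, linear axis) by set in clusters 1 and 2; symbols are plates and bars the mean and SD over the plates of a set. Snrpn and Ndn were highest in Set 3, where Peg3 was lowest, and Meg3 was lowest in Set 1.

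Of 37 other imprinted genes tested in cluster 1, 15 differed between sets, against 26.8% of all genes, and 19 of 34 did in cluster 2, against 31.5% of all genes. The largest shift among those named was that of Cd81, with Set 3 minus Set 2 at 0.77 in cluster 1 (limma F test adjusted p = 2.77e-09) and 0.92 in cluster 2 (adjusted p = 2.04e-10). Blcap was also higher in Set 3, by 0.32 (adjusted p = 0.000461) and 0.33 (adjusted p = 3.05e-05). H13 passed in cluster 2 only (0.34, adjusted p = 0.000567), and whether the clusters differ was not tested.

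The genes also differed in how evenly single cells carried them. Snrpn was even, with a coefficient of variation over cells of 0.229 in cluster 4, 0.222 in cluster 1 and 0.261 in cluster 2. Nnat was uneven, at 0.976 in cluster 4, 1.50 in cluster 1 and 1.52 in cluster 2. The richest 10% of cells held 34.0% of the Nnat level in cluster 4, 47.4% in cluster 1 and 42.2% in cluster 2. No Nnat count was seen in 3 of 54 cells of cluster 4, 163 of 388 of cluster 1 and 57 of 335 of cluster 2. After thinning to 15000 counts, 86.8% of cells of cluster 4 had a Nnat count (95% interval 74.7% to 94.5%), against 45.8% in cluster 1 (40.6% to 51.0%) and 65.0% in cluster 2 (59.5% to 70.2%). Within cluster 4, Nnat and Gnas had a Spearman correlation of 0.459 over 54 cells, with sets not separated, and in clusters 1 and 2 it was 0.03 and -0.07 with plate means removed.

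Likeness to each gene was measured by Pearson's r over the 9 means of 3 clusters and 3 sets, among 1860 genes with a mean of at least 1 count per 10000. The means share sets and depth, so r is a description. Gnas was most like Ebf1, a transcription factor (r = 0.990), and Ddah1, an enzyme of methylarginine breakdown (0.982). Nnat was most like Pmp22 (0.967) and Got1, an aspartate aminotransferase (0.964). Pmp22 is also 1 of the 8 glial markers, but was present in all neuron groups. Snrpn was most like Mdh2, a mitochondrial malate dehydrogenase (0.967), and Map1lc3b, an autophagosome protein (0.965), and Ndn was most like Dusp26, a phosphatase (0.960), and Psmc4, a proteasome subunit (0.957). Peg3 was most like the adhesion molecule Chl1 (0.944) and the splicing factor Srrm1 (0.940), and Meg3 was most like Igsf9b, an adhesion molecule (0.932), and Gnb1 (0.895). Among the genes themselves, r was 0.861 for Snrpn and Ndn, 0.843 for Gnas and Nnat, and -0.863 for Snrpn and Peg3.

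The low-count cells of cluster 3 carried less Snrpn, Ndn, Meg3 and Nnat than clusters 1 and 2 did, with no test made. This did not hold throughout for Peg3 and Gnas. Snrpn was at 4.88 ± 2.23 counts per 10000 in them, against 25.7 ± 4.18 in cluster 1 and 25.7 ± 6.09 in cluster 2 (SD, n = 3 sets). Ndn was at 2.87 ± 0.890, against 6.57 ± 0.929 in cluster 1 and 5.32 ± 1.06 in cluster 2. Meg3 was at 4.56 ± 1.79, against 14.2 ± 2.03 in cluster 1 and 14.3 ± 2.02 in cluster 2. Peg3 was at 0.860 ± 0.239, against 1.52 ± 0.387 in cluster 1 and 1.15 ± 0.394 in cluster 2, and its range over sets overlapped that of cluster 2. The high-count cells of cluster 3 held 0.850 ± 0.258 of Peg3. At 1500 counts per cell, Peg3 was found in 18.5% of the low-count cells and 10.6% of the high-count cells. It was found in 20.9% in cluster 1 and 13.7% in cluster 2. Nnat gave 1 count in the 54 low-count cells. At 1500 counts per cell it was found in 1.85% of them, against 7.22% in cluster 1 and 18.5% in cluster 2. Gnas was uneven over the sets, at 0.561, 2.89 and 0.327 in Sets 1, 2 and 3, from 3, 29 and 1 counts. At 1500 counts per cell, Gnas was found in 29.6% of the low-count cells, against 11.1% in cluster 1 and 39.1% in cluster 2. The low-count cells had a median of 2683.5 counts. After all cells were thinned to 1500 counts, a Snrpn count remained in 42.6% of the low-count cells (95% interval 29.2% to 56.8%), against 96.6% in cluster 1 (94.3% to 98.2%) and 97.3% in cluster 2 (95.0% to 98.8%). Unthinned, the shares were 64.8%, 100% and 100%. At 1500 counts per cell, the noradrenergic marker Th was found in 88.9% of the low-count cells. The endothelial markers Cdh5 and Pecam1 were found in 16.7% and 27.8%, so the low-count cells are not a pure population of either kind. Glial, fibroblast and mural markers were also present in them.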

How the data were processed

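Single cells of the stellate ganglion were sorted into plates and their 3' ends sequenced, per the labels' protocols. The submitters' processing notes name STAR 2.5.3a, SAMtools 1.4.1, featureCounts 1.5.3 and Seurat, and the build GRCm38. Strand use in counting is not stated there. The authors deposited 1 table whose values are the natural log of 1 plus counts per 10000 in each cell, and the authors' cluster numbers, labels with no unit. Whole counts were recovered from 100% of non-zero values (tolerance 0.001).

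Cells were averaged as log2(1 + counts per 10000) per set and cluster, or per plate, and tested two-sided with limma 3.58.1 in R 4.3.3 (trend, robust) on genes with a mean of at least 0.05 counts per 10000. Adjustment was by Benjamini-Hochberg over all genes, with a threshold of 0.05. Such log2 differences understate changes of low genes. The set was a block because clusters of a set come from the same pooled ganglia. Their deviations from the cluster means correlated at 0.555 to 0.866 within a set and at -0.720 to 0.00171 between sets. The deviations of a cluster cancel over the sets by construction, which lowers the values between sets, so nothing is read from those. The fit was also run on simulated counts. For cluster 4 these had a set effect shared by all clusters, so they cannot check p-values where cluster differences vary with set. No doublet caller was run, and the 96 well barcodes recur in all plates.

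The genes, lists and comparisons were chosen with earlier results of these data known, so counts over them are descriptions. The genes named are the 7 imprinted genes, their domain neighbours, the 4 most abundant members of each other list, and the 2 genes most like each. Exceptions, chosen after their values were seen, are Gnal, Th, Cdh5, Pecam1 and the single markers Vip, Chat, Apoe, Pmp22 and Mbp. Also chosen so were the groups by total count, the motifs and 3 alternatives (summed counts, voom weights, weights by cell number). Positions are from GENCODE M21, which matched 18737 of 19444 symbols. Intervals are 95% Clopper-Pearson.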

Additional observations from a re-analysis of the deposited data

Results flagged for a closer look

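Within Set 1, plate 1 stood apart from the other 3 plates in cluster 2. Its Nnat level was 2.33 counts per 10000, with the next plate at 1.09. Its Ndn level was 5.61, with the next plate at 5.08. Of 24 groups of 4 plates checked in this way, chance flags about 1 in 20.

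For Snrpn, cluster 1 minus cluster 2 had opposite signs in 2 sets. It was above 0 on every plate of Set 2 (mean 0.15 on the log2 scale) and below 0 on every plate of Set 3 (mean -0.10). The difference between the sets was not tested.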

How the results depend on the processing

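In cluster 4 minus the mean of clusters 1 and 2, Gnas and Nnat kept their direction and call under all 12 alternatives, with log2 differences of 1.50 to 1.65 and 0.99 to 1.36 when 1 set was left out. Ndn and Peg3 passed under none. Without the replicate block, 1118 genes passed in place of 2608 and 2 of the 6 genes in place of 4, since Meg3 (adjusted p = 0.279) and Snrpn (0.713) were lost. Leaving out 1 set gave 1810 to 1869 genes and 3 of the 6. Snrpn was also lost with no filter (0.112), median-of-ratios size factors (0.140), summed counts (0.0530), voom weights (0.232) and each set left out (0.0534 to 0.138).

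Between sets, thinning to 15000 counts gave 1799 genes in place of 2778 in cluster 1 and 1922 in place of 3260 in cluster 2, where no filter gave 2084. Leaving out 1 plate gave 2172 to 2975 genes in cluster 1 and 2570 to 3620 in cluster 2, and 4 to 5 of the 6 genes in each, where nothing is read from Gnas. Snrpn, Ndn, Peg3 and Meg3 passed under all 15 alternatives in both clusters. Nnat came to pass in cluster 1 with median-of-ratios size factors (0.00247) and without plate 8 (0.0283) or 11 (0.0301), and in cluster 2 with a pseudocount of 0.1 (0.0124) and without plate 1 or 7 (0.0153).

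Gnas in cluster 1 minus cluster 2 was -1.307 to -1.004 with 1 set left out, -1.91 with a pseudocount of 0.1 and -1.89 with voom weights. Reasons for these changes were not tested. With 12 to 24 cells of cluster 4 per set and low levels of Nnat and Peg3, counting noise limits those values.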
